A study of Homo sapiens with 3 samples.

Results

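Genes of protein processing in the endoplasmic reticulum (ER) were compared between 1 HCT116 library with a control shRNA (sh_control) and 2 libraries with an shRNA against the circular RNA circRAPGEF5 (sh_circRAPGEF5_1 and sh_circRAPGEF5_2, knockdown libraries 1 and 2). The genes are those whose deposited pathway annotation holds the entry for this pathway, 163 of 15625 genes. Left out were 8 of them, the NRF2 gene and 7 cytosolic heat shock chaperones, which leaves 155 genes. HCT116 is a human colorectal carcinoma cell line. All 3 libraries share the line, the shRNA system and the label MT for genotype, whose meaning is not given. Cells were collected after 36 or 48 h, and neither the time of each library nor the hairpin behind each knockdown library is stated. The same holds for whether they are separate cultures, and the p-values below rest on a spread that could be purely technical.

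The circular RNA itself was not analysed here. Its host gene RAPGEF5 was at 1.98 FPKM in sh_control, then 1.33 and 2.73 in knockdown libraries 1 and 2, which does not check the knockdown. FPKM is fragments scaled by gene length and library total. The fewest whole reads that can give these values add up to between 14632390 and 15758794 per library. Of 10 intestinal epithelial markers 6 passed the filter on low values (a mean of at least 1 FPKM over the 3 libraries), and the whole list summed to 2286 FPKM in the control and to 2552 and 3884 in knockdown libraries 1 and 2. VIL1 was listed at 0.00944 FPKM in the control and at 0 in both knockdown libraries, and CDH17, LGALS4 and KRT20 were also under the filter. Markers of other cell types were at or below 0.559 FPKM. These are bulk libraries, in which fewer cells with a transcript and less of it per cell cannot be told apart.

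Proteins that enter the secretory pathway pass through the SEC61 channel into the ER, receive N-linked glycans, fold with chaperones and disulfide isomerases, and leave in COPII vesicles. Chains that fail to fold are drawn back to the cytosol, ubiquitinated and degraded, a route known as ER-associated degradation (ERAD). When unfolded chains accumulate, the sensors PERK (EIF2AK3), IRE1 (ERN1) and ATF6 start the unfolded protein response (UPR), in which XBP1, ATF6 and ATF4 act on the promoters of chaperone and stress genes. Intestinal epithelium secretes heavily and is known to depend on this response.

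The DNA element known for the induction of ER chaperones, the ER stress element, was searched for in the promoters of the 155 genes because chaperone genes with this element are described together below. Promoter windows, from 250 bases before to 50 after each start site, were taken from RefSeq on GRCh38.p14, and 132 of the genes had at least 1. The element, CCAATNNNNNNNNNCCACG on either strand, was in a window of 7 of these 132 genes (5.3%), which were HSPA5, HSP90B1, CALR, CANX, PDIA6, ERO1B and XBP1. Of all 27305 genes with windows, 25 (0.0916%) held it. This reference reaches beyond the 15625 genes with deposited values, and shares among the tested genes were not computed. A second form, ATTGGNCCACG, was in HERPUD1 and HYOU1 (1.52%), against 0.0696% of all genes. The UPR element TGACGTGG was in 10 of 132 genes (7.58%), against 0.927% of all genes. They were DNAJC10, HYOU1, SEC23A, SEC24A, SEC62, SSR3, SSR4, TXNDC5, UBE2J1 and VCP. In HYOU1 it overlaps 1 of the 2 matches to the second form. The amino acid response element TGATGNAA, a motif of ATF4 targets, was in HERPUD1 and HSPA4L, 1.52% of the 132 genes against 4.46% of all genes. A match describes letters in a window and is not a bound site. Examples upstream of the start site are shown 5′ to 3′ on the gene's strand, with the ends of the ER stress element in capitals. HSPA5 lies on chr9:125241371-125241429 (minus strand), CALR on chr19:12938364-12938422 (plus), PDIA6 on chr2:10812833-10812891 (minus, at 1 of its start sites) and XBP1 on chr22:28800583-28800641 (minus). The CALR element reads on the opposite strand.
HSPA5: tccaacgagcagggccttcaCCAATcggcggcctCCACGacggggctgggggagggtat
CALR: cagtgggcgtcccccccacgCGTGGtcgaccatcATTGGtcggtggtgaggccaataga
PDIA6: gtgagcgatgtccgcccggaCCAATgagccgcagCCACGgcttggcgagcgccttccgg
XBP1: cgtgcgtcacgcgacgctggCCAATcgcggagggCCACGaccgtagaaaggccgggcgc

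Levels of the 155 genes spanned 0 to 467 FPKM in the control, with P4HB the highest there and CALR the highest in the knockdown libraries. Their share of all FPKM was 1.89% in sh_control, 1.81% in library 1 and 2.18% in library 2. A mean of at least 1 FPKM over the 3 libraries was required for testing, and 143 genes passed. The 12 others, at no more than 0.808 FPKM in the control, included MAN1C1, LMAN1L, EDEM2, TUSC3, HSPA1L, HSPA6, DNAJC5B, MMP24-AS1-EDEM2, CRYAA2, MAPK10 and BCL2. Among these, HSPA6, DNAJC5B and CRYAA2 were listed at 0 in the control and knockdown library 1, and EDEM2 shares exons with the read-through row MMP24-AS1-EDEM2.

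No gene of the set passed the test of knockdown against control. On the log2(FPKM + 1) scale limma called 0 of 143 at an adjusted p under 0.05, against 0.0178% of the 11216 genes tested in all, and limma's smallest adjusted p in the set was 0.478. At an unadjusted p under 0.05 there were 7 genes (4.9%), against 7.07% of all genes tested. These were MAN1A1, DNAJB2 and SEC31B on the lower side and EIF2S1, HSPA4L, SSR1 and UBE2D1 on the higher side. Both knockdown libraries lay above the control in 58 of the 143 genes (40.6%), against 31.7% of all genes tested. Both lay below it in 32 (22.4%), against 37.6% of all genes. The median log2 fold change was 0.10 in the set and -0.05 over all genes tested, with 0.06 in knockdown library 1 and 0.18 in knockdown library 2. Both comparisons share the single control, so its own variation enters every count. A change of at least 2-fold in both libraries was reached by 0 genes on the higher side, against 1.21% of all genes, and by 1 on the lower side, MAN1A1, against 1.70%. At 1.5-fold in both libraries, 9 genes were higher (6.29%, against 5.52% of all genes) and 3 lower (2.1%, against 7.40%). At 3-fold there were 0 on the higher side, against 0.196% of all genes, and 0 on the lower, against 0.143%.

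**Figure D1:**
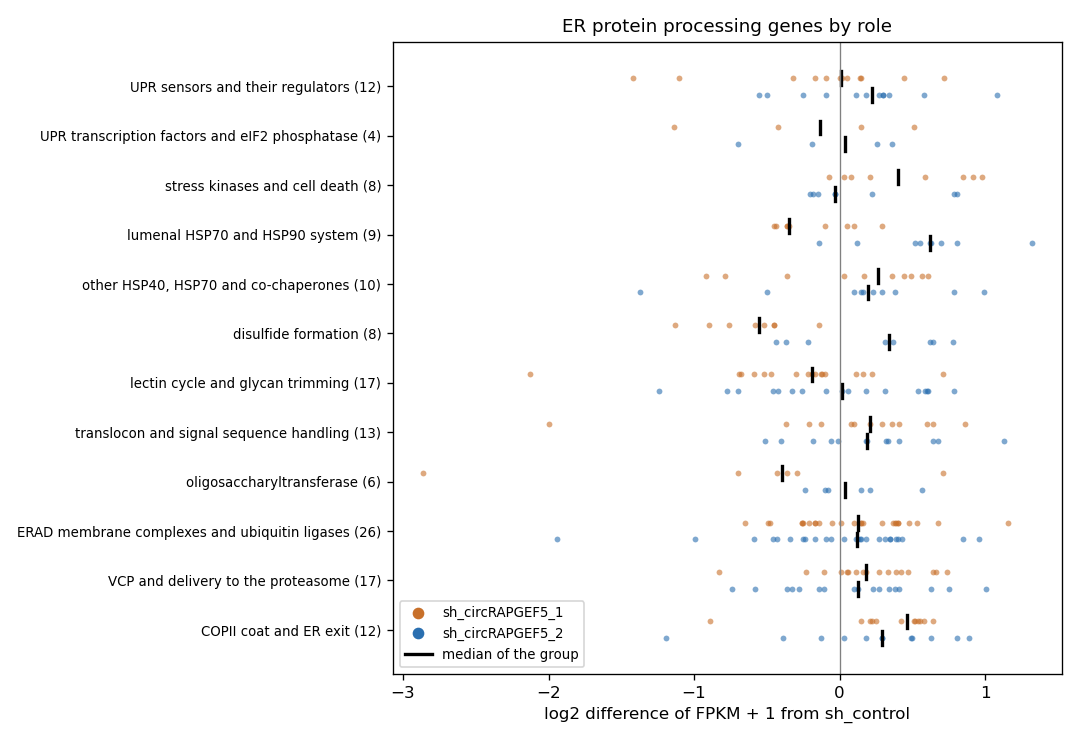
Log2 differences of FPKM + 1 from the control for the tested genes of each role group, 1 point per gene and library, with the number of genes in brackets and black bars at the group medians. In the lumenal HSP70 and HSP90 group the medians lie at -0.35 (library 1) and 0.62 (library 2), and in the disulfide group at -0.55 and 0.34, while the COPII medians are both above 0.

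Most genes of the lumenal HSP70 and HSP90 group were lowest in knockdown library 1 and highest in knockdown library 2, with the control between them. HSPA5 (BiP, the lumenal HSP70, Entrez 3309, chromosome 9, 125234853 to 125241330 on GRCh38), whose promoter element is printed above, was at 182 FPKM in sh_control, 170.0 in library 1 and 319 in library 2. For the genes that follow, values stand in the order control, library 1, library 2. All named genes and role groups were chosen with earlier results of these data known. Genes marked as chosen after their values were seen also lie outside the fixed rule for naming genes. HSP90B1 (GRP94, the lumenal HSP90) was at 283 FPKM in sh_control, then 222 and 439.8. Of the HSP70 partners in the group, DNAJB11, HYOU1 and DNAJC3 showed the same order. DNAJB11 (ERdj3, an HSP40 partner of BiP, chromosome 3, 186567403 to 186585800) was at 31.9 FPKM in sh_control, then 24.5 and 81.3. HYOU1, a nucleotide exchange factor of BiP, was at 72.4, 53.2 and 106 FPKM, and DNAJC3 (p58IPK) at 7.28, 5.44 and 10.9. In each of these genes knockdown library 2 was the highest of the 3 libraries and knockdown library 1 the lowest, and the log2 difference between them ran from 0.89 in DNAJC3 to 1.69 in DNAJB11. For HSPA5 the library 1 value lay so near the control that its log2 difference of -0.10 became 0.00 with median-ratio rescaling. The exchange factor SIL1 (9.99, 12.5 and 16.9 FPKM in control, library 1 and library 2) and the membrane HSP40 DNAJC1 (5.34, 5.77 and 8.78) were above the control in both. DNAJC10, a reductase of the same group chosen after its values were seen, was at 9.06, 9.40 and 8.15 FPKM and outside this order. None of the 9 genes of the group passed, with limma adjusted p of 0.861 or more.

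Most protein disulfide isomerases of the set had the same order. PDIA6 was at 48.9 FPKM in sh_control, 25.7 in library 1 and 84.9 in library 2. PDIA3, which works with the lectins calnexin and calreticulin, was at 121, 54.8 and 156 FPKM. PDIA4 was at 101, 73.3 and 158 FPKM. TXNDC5, another isomerase, likewise chosen afterwards, was at 97.8, 68 and 151 FPKM, and ERO1A, the oxidase that recharges them, at 20.9, 19 and 26.2. P4HB, the most abundant isomerase and also a subunit of prolyl hydroxylase, differed from them: it was at 467 FPKM in sh_control, then 342 and 400.0. ERP29 (122 FPKM, then 71.4 and 94.1) and the weakly expressed oxidase ERO1B (1.66, then 0.782 and 0.958) were also below the control in both libraries. All 8 genes of the group were below the control in knockdown library 1, and 5 were above it in knockdown library 2. Over all 11216 genes tested, 5931 were below it in library 1 and 5266 above it in library 2.

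The lumenal chaperone and disulfide groups were joined after their values were seen, so the counts over both describe a chosen set. In them, 16 of 17 genes were higher in knockdown library 2 than in knockdown library 1, with a median log2 difference of 0.89, against 0.02 over all genes tested. The same direction was found in 81 of the 143 genes and in 5729 of all 11216 tested. Among other role groups, 5 of 6 oligosaccharyltransferase genes had it, with a median difference of 0.59, so it is not particular to these 2 groups. It was found in 9 of 12 UPR sensor genes (median 0.21) and in 5 of 12 COPII genes (median -0.19). A difference of at least 1.5-fold in this direction was found in 9 of the 17, in 27 of the 143 (18.9%) and in 13.8% of all genes tested. In the opposite direction it was found in 0 of the 17, in 15 of the 143 (10.5%) and in 12.9% of all genes. This compares 1 library with 1 library, so it has no test. Among strongly expressed genes, those at 100 FPKM or more in the control, the median difference was 0.03 over 524 genes. The 18 such genes of the set had a median difference of 0.36, with 15 higher in library 2. Most of the 17 genes lay under 100 FPKM in the control. Of the 7 genes with an ER stress element in a promoter window, 6 were higher in library 2 than in library 1, with a median difference of 0.92. Among the 117 tested genes with a window but no match, 63 were higher, with a median difference of 0.06. CANX, calnexin, was the exception among the 7, and HSPA5, HSP90B1, PDIA6 and ERO1B are also among the 17. XBP1 and ERO1B were below the control in both libraries. The motifs were chosen with results of these libraries known, and each difference is 1 library against 1 library. The UPR element went with another order: of its 10 genes 3 were higher in library 2 than in library 1 (HYOU1, SSR4 and TXNDC5) and 7 were lower, with a median difference of -0.35, against 0.12 for the 114 genes without it. The second form of the ER stress element had differences of 0.19 (HERPUD1) and 0.99 (HYOU1), and the amino acid response element of 0.19 (HERPUD1) and -0.06 (HSPA4L). Genes annotated to the ER lumen by a GO term, a property taken up after the values were seen, had medians of -0.36 in library 1 and 0.35 in library 2 (26 tested), against 0.15 and 0.15 for the 117 other genes. Genes outside the set with the same term had medians of -0.36 and -0.06 (138 tested). The summed intestinal epithelial markers given above were also highest in knockdown library 2. KRT8 (1031, 1084 and 1694 FPKM), KRT19 (563, 622 and 1079) and KRT18 (478, 652 and 885) made up most of the sum, while EPCAM was at 176, 170.0 and 191, CDX2 at 4.24, 3.40 and 5.61 and CDH1 below the control in both libraries at 33.1, 20.3 and 26.7. The part of these markers in the result was not tested.

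**Figure D2:**
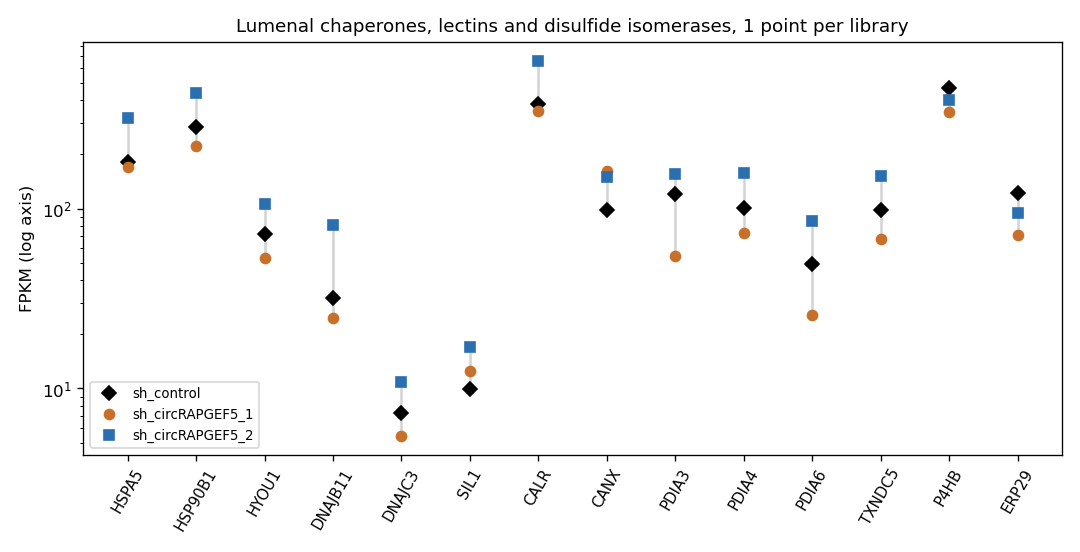
FPKM (log axis) of lumenal chaperones, lectins and disulfide isomerases, with 1 point for each of the 3 libraries and a grey line from the lowest to the highest. Knockdown library 2 (squares) is the highest and knockdown library 1 (circles) the lowest in HSPA5, HSP90B1, HYOU1, DNAJB11, DNAJC3, CALR, PDIA3, PDIA4, PDIA6 and TXNDC5, while CANX is above the control in both and P4HB and ERP29 are below it in both.

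The lectins and glycan-trimming enzymes included the gene farthest below the control. MAN1A1, a mannosidase that trims N-glycans in the Golgi (Entrez 4121, chromosome 6, 119177209 to 119349761), was at 77.6 FPKM in sh_control, then 17 and 32.3 in the knockdown libraries, a mean of 24.7 ± 10.9 (SD, n = 2). Its log2 fold change was -1.68 ± 0.45 (SE, limma adjusted p = 0.478). Each SE here and below is moderated by limma toward the spread of all genes tested. At least 1485 reads lay behind each value, and both libraries lay well below the control. Of 17 tested genes in this group, 8 were below the control in both libraries, against 37.6% of all genes tested. Above it in both were 4, against 31.7%. The median was -0.16, from -0.19 in library 1 and 0.02 in library 2, so it rests on library 1. Both subunits of glucosidase II, which removes glucose from new glycans, were among the lower ones. PRKCSH was at 161, 112 and 116 FPKM, and GANAB, which was chosen after its values were seen, at 161, 130.0 and 134. OS9, a lectin that hands misfolded glycoproteins to ERAD, was at 67.1, 44.3 and 50 FPKM, and EDEM1, an ERAD mannosidase, at 10.1, 9.30 and 5.82. The 2 folding lectins had different orders. CANX was at 98.6 FPKM in sh_control, then 162 and 149, above the control in both, whereas CALR was at 380.3, 348 and 659. Neither passed, with limma adjusted p of 0.802 and 0.93.

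The oligosaccharyltransferase, which transfers the glycan to the new chain, held the largest difference in a single library. RPN2, a subunit of the complex (chromosome 20, 37178410 to 37241623), was at 172 FPKM in sh_control, 22.9 in library 1 and 146 in library 2. The log2 differences were -2.86 and -0.24, and their mean was -1.55 ± 0.76 (moderated SE, limma adjusted p = 0.734). This SE is smaller than the 2 knockdown values alone would give. No other subunit was 2-fold below the control in library 1. DDOST was at 264, 196 and 246 FPKM in control, library 1 and library 2, STT3A at 77.4, 63.1 and 73.2, and STT3B at 38.6, 23.4 and 42.8. DAD1 was above the control in both, at 99, 162 and 115 FPKM. RPN1, chosen after its values were seen, had the order of most lumenal chaperones, at 150.2, 117 and 223 FPKM.

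The translocon genes were mostly near the control. Of 13 tested, 6 were above it in both libraries, against 31.7% of all genes tested, and 2 below it in both, against 37.6%. The median of 0.20 was 0.05 with quantile normalization and 0.29 with median-ratio rescaling. SSR1, a subunit of the translocon-associated protein complex (chromosome 6, 7268306 to 7347446), was at 10.6 FPKM in sh_control, then 20 and 24.4 in the knockdown libraries. The log2 differences from the control were 0.86 and 1.13, and the limma adjusted p was 0.643. The channel subunits SEC61B (81.5, 100.1 and 102 FPKM) and SEC61G (66.6, 85.7 and 104) were above the control in both libraries, and SEC61A1 was near it at 128, 136 and 127. Its paralog SEC61A2 was at 6.23, 4.61 and 4.06 FPKM, and TRAM1, which assists insertion, at 52.3, 79.9 and 59.8. RRBP1, a ribosome-binding protein of the rough ER that was chosen after its values were seen, was at 54.5 FPKM in the control, 12.9 in library 1 and 87.6 in library 2.

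The UPR sensors showed small differences in most cases. EIF2AK3 (PERK) was at 6.16 FPKM in sh_control, then 6.92 and 7.62, ERN1 (IRE1) at 2.76, 2.89 and 3.77, and ATF6 at 9.04, 8.42 and 10.4. ATF6B, a paralog of ATF6, was at 27.5 FPKM in the control and 25.8 in knockdown library 2, but at 9.68 in knockdown library 1. The gene of this group farthest above the control was EIF2S1, the eIF2 alpha subunit that PERK phosphorylates, at 35, 58.1 and 75 FPKM. Its log2 fold change was 0.90 ± 0.40 (SE; limma adjusted p = 0.695). MBTPS1, the site-1 protease that cleaves ATF6, was at 38.7, 52.9 and 48 FPKM, and EIF2AK2 (PKR), a kinase of the same eIF2 site, at 15.6, 13.7 and 10.3. Among the transcription factors XBP1 was at 50.2 FPKM in the control, 22.3 in library 1 and 43.9 in library 2, and ATF4 at 80.5, 59.9 and 49.3. Both factors were thus below the control in both libraries, with log2 fold changes of -0.66 ± 0.46 and -0.56 ± 0.39 (SE). Gene-level values do not separate spliced from unspliced XBP1 and do not measure the translation of ATF4. The other 2 genes of the group were above the control in both. DDIT3 (CHOP), a pro-apoptotic factor, was at 19.8, 22 and 25.7 FPKM, and PPP1R15A (GADD34), which directs the phosphatase of eIF2 alpha, at 22.9, 33 and 27.6. None of the 4 passed, with limma adjusted p from 0.817 to 0.935.

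In the set, as over all genes tested, a change of at least 2-fold from the control in library 1 was more often toward lower values. Of the set, 7 genes were 2-fold lower in library 1 (4.9%, against 5.94% of all genes tested). They were RPN2, MAN1A1, RRBP1, ATF6B, XBP1, PDIA3 and WFS1, the last chosen after its values were seen (16, 6.94 and 17.3 FPKM). Only UBE2D1 was 2-fold higher in library 1, against 3.18% of all genes. In knockdown library 2, DNAJB11, YOD1, EIF2S1 and SSR1 were 2-fold higher, against 4.11% of all genes, and MAN1A1, DNAJB2, SEC31B and RNF5 were 2-fold lower, against 6.06%. RNF5, an ER-anchored ubiquitin ligase chosen after its values were seen, was at 48.8 and 49.2 FPKM in the control and library 1 and at 12.0 in library 2. All 4 shares lie below those of all genes tested.

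**Figure D3:**
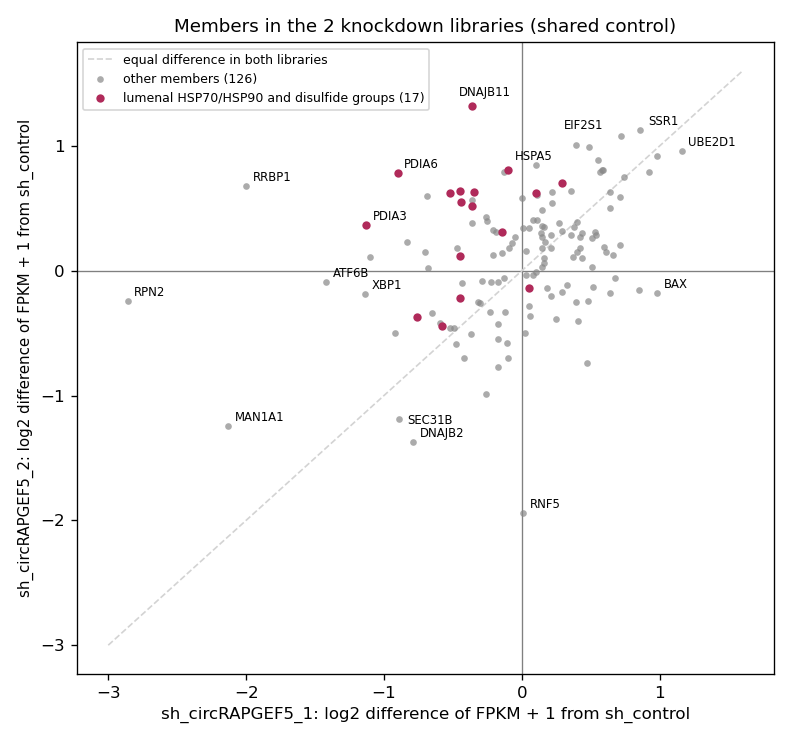
Log2 difference of FPKM + 1 from the shared control in knockdown library 1 (x axis) and knockdown library 2 (y axis) for the 143 tested genes, with the lumenal HSP70/HSP90 and disulfide groups in red. RPN2 and RRBP1 lie far to the left (-2.86 and -2.00 in library 1), RNF5 far below (-1.94 in library 2), MAN1A1 low on both axes, and most red points lie at the upper left.

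ERAD genes were spread around the control. The 26 tested genes of the membrane complexes and ubiquitin enzymes had a median of 0.09. Above the control in both libraries were 10, against 31.7% of all genes tested. Below it in both were 6, against 37.6%, and 10 lay on opposite sides. The 2 core parts of the HRD1 ligase lay on different sides: the scaffold SEL1L was at 11.7 FPKM in sh_control, then 8.15 and 7.43, and the ligase SYVN1 at 16.9, 24.7 and 21.1. HERPUD1, a UPR target that joins this complex, was at 17.1, 19.2 and 22.1 FPKM. The derlins, channel proteins of retrotranslocation, lay near the control, with DERL1 at 34.2, 31.1 and 37.8 FPKM and DERL2 at 7.91, 7.58 and 9.77. The ubiquitin-conjugating enzyme UBE2J1 of the ER membrane was at 17.7, 14.6 and 8.38 FPKM. UBE2D1, a cytosolic enzyme of that class (chromosome 10, 58334975 to 58370753), was at 6.81 FPKM in sh_control, then 16.4 and 14.2. The log2 fold change was 1.06 ± 0.42 (SE; limma adjusted p = 0.628). FBXO2, which recognises glycoproteins, was at 112, 71.2 and 88 FPKM.

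In the VCP group, which extracts and delivers ERAD substrates to the proteasome, 9 of 17 genes were above the control in both libraries. Of all genes tested 31.7% were. Below it in both were 2 of the 17, against 37.6% of all genes tested. VCP, the ATPase, was at 61.2 FPKM in sh_control, then 97.4 and 67. Its cofactors PLAA (9.66, 15.6 and 15.6 FPKM) and UBXN8 (4.93, 8.87 and 8.95) and the deubiquitinase YOD1 (6.46, 8.80 and 14.1) were the farthest above the control. Their log2 fold changes were 0.64, 0.74 and 0.70, with limma adjusted p from 0.774 to 0.81.

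Of 12 COPII coat genes 9 were above the control in both libraries, against 31.7% of all genes tested. The median of the 12 was 0.31 (0.47 in library 1 and 0.29 in library 2). SEC13, of the outer coat, was at 41 FPKM in sh_control, then 60.5 and 77. The inner coat genes SEC23A (28.5, 44.8 and 40.7 FPKM), SEC23B (38.4, 57.8 and 68.2) and SEC24D (12.6, 14.9 and 20) were above the control as well. Both SEC23 genes had values in the knockdown libraries closer to each other than to the control. SEC31B, a paralog of the outer coat gene SEC31A (chromosome 10, 100486642 to 100519864), stood apart from its group. It was at 20.2 FPKM in sh_control, then 10.5 and 8.29. The log2 fold change was -1.04 ± 0.42 (SE; limma adjusted p = 0.641).

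Cytosolic and other co-chaperones had a median of 0.23. Of 10 tested genes, 7 were above the control in both libraries, against 31.7% of all genes tested. The cytosolic HSP40 genes DNAJA1 (137, 193 and 273 FPKM) and DNAJA2 (29, 43.5 and 50.9) were above it, and DNAJB2, which guides clients to degradation, was below it at 25.6, 14.5 and 9.30. The log2 fold change of DNAJB2 was -1.08 ± 0.43 (SE; limma adjusted p = 0.632). DNAJC5G was at 2.30, 0.747 and 1.33 FPKM, from at least 26 reads. HSPA4L, an HSP110-type exchange factor outside the role groups that was chosen after its values were seen, was at 2.67, 6.26 and 5.95 FPKM. Of 8 tested stress kinase and cell death genes, 2 were above the control in both libraries, against 31.7% of all genes tested. On opposite sides lay 6. BAK1, a pore-forming apoptosis gene, was at 12.6 FPKM in sh_control, then 24.8 and 22.4, and MAP3K5 (ASK1), a kinase recruited by IRE1, at 1.31, 2.47 and 3.05. BAX, a pore-forming relative of BAK1 chosen after its values were seen, differed between the libraries. It was at 69.5 FPKM in the control, 138 in library 1 and 61.4 in library 2. DNAJ, UBE2D, HSP90 and PDIA3-type genes have close paralogs or pseudogene copies, as has RNF5, so reads may be split between them and their values are uncertain.

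UPR targets outside the pathway annotation were mostly above the control. Of 22 tested genes, 14 were above it in both libraries, against 31.7% of all genes tested, and 2 below it in both, against 37.6%. The medians of these 22 were 0.25 in library 1 and 0.44 in library 2. SRPRB, a subunit of the receptor that docks ribosomes at the ER, was at 15.2 FPKM in sh_control, then 34.8 and 37. The log2 fold change was 1.19 ± 0.40 (SE; limma adjusted p = 0.58). SELENOK, an ER membrane selenoprotein, was at 9.14, 14.6 and 19.4 FPKM. SDF2L1, a partner of DNAJB11 in the lumen, was at 24.5 and 24.6 FPKM in the control and library 1 and at 72.7 in library 2. DNAJB9 (5.32, 7.29 and 12.4 FPKM), MANF (52.6, 68.6 and 65.2) and PDIA5 (20.5, 24.9 and 34.3) are also annotated to the ER lumen. These genes, chosen after their values were seen, were above the control in both libraries, so library 1 was not the lowest in them. TMED10, a cargo receptor, was the farthest below the control at 74.6, 28.4 and 51.8. ATF4 targets outside the annotation were divided: 5 of 16 were above the control in both libraries and 6 below it in both. Both shares are near those of all genes tested. The medians of the ATF4 targets were -0.34 in library 1 and 0.01 in library 2. Asparagine synthetase, ASNS, was at 87.7 FPKM in sh_control, then 32.4 and 29.1, the glutathione-degrading CHAC1 at 6.17, 2.33 and 3.27, and JDP2 at 4.05, 0.567 and 2.36. The stress cytokine GDF15 was at 57.4, 162 and 253 FPKM, on the opposite side from these. None of the 38 genes of both lists passed, with a smallest limma adjusted p of 0.381. Both lists were chosen with results of these libraries known.

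**Figure D4:**
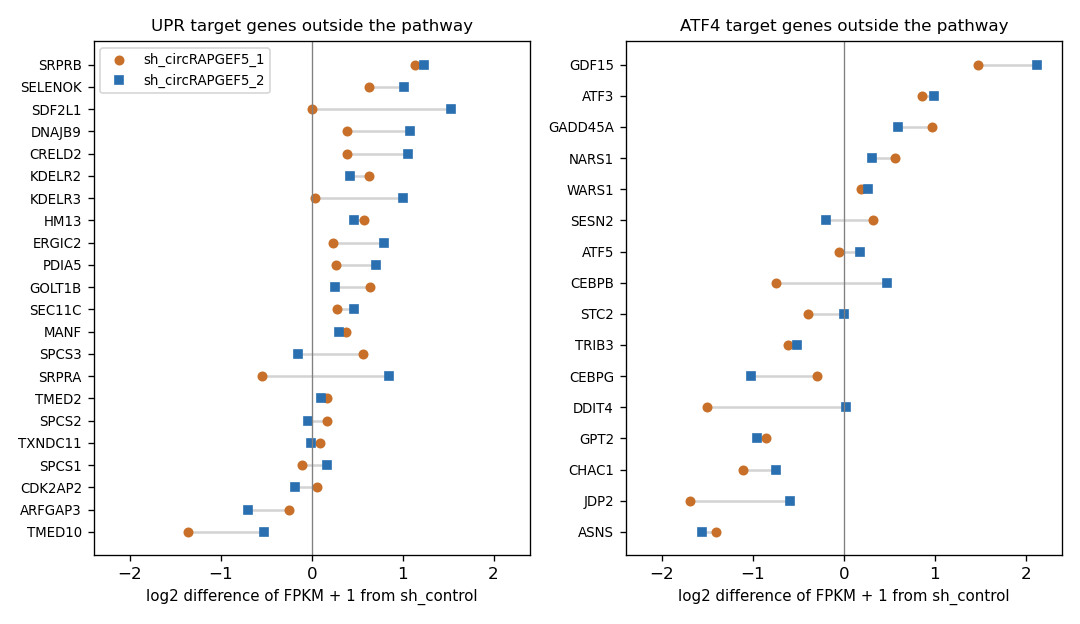
Log2 difference of FPKM + 1 from the control for the tested UPR targets (left) and ATF4 targets (right) outside the pathway annotation, with circles for knockdown library 1, squares for knockdown library 2 and a grey line between them. SRPRB (1.14 and 1.23) and GDF15 (1.48 and 2.12) are at the top of the panels, and TMED10 (-1.36 and -0.52) and ASNS (-1.41 and -1.56) at the bottom.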

How the data were processed

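The deposited table holds FPKM values, computed by the authors, for 1 control and 2 knockdown libraries of poly(A)-selected RNA. The tools Trimmomatic and HISAT2 and the build GRCh38.p13 are named per the submitters' processing notes. How reads were counted, with which annotation and on which strand, is not given in the sources used here. KEGG pathway and GO names are annotation text that the authors deposited beside the values.

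Genes with a mean of at least 1 FPKM were tested on log2(FPKM + 1) by limma 3.58.1 (R 4.3.3) with its trend option and Benjamini-Hochberg adjustment over 11216 genes (threshold 0.05). This scale understates changes of weakly expressed genes. The fit has 1 residual degree of freedom, from the knockdown pair, whose spread stands in for that of the control. Limma added a prior of 10.92 degrees of freedom, so each SE and p rests mostly on the spread of other genes. An exact permutation of 1 library against 2 cannot go below p = 0.33. The step was tested on simulated data, with noise drawn from the spread that limma had fitted. Such data cannot show whether that spread holds for the single control. Ratios of FPKM between libraries were ratios of whole reads in 100% of 14599 genes (relative tolerance 1e-12), which gave depth up to a common factor per gene.

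Named genes are those 2-fold in both libraries, up to 4 per role group with the largest change on 1 side of the control, 35 fixed genes, and 4 per list outside the pathway. The genes, lists and motifs were chosen with earlier results of these data known. Alternatives were pseudocounts, filters, scalings, limma settings, fold thresholds and leaving out a library. Gene positions are from GENCODE 29. Protein sequences were not analysed here.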

Additional observations from a re-analysis of the deposited data

How the results depend on the processing

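Limma called 0 genes of the set under each of the 9 alternatives run, with 5 to 7 at an unadjusted p under 0.05. At that unadjusted limma p, these alternatives had 543 to 1089 of all genes, out of 8198 to 15625 tested. Genes at least 2-fold higher in both libraries numbered 2 with a pseudocount of 0.1, 1 with median-ratio rescaling and 2 with quantile normalization, against 0. Over all genes tested this share was 1.21% with the settings used above and is not given for these alternatives. At 1.5-fold, 9 were higher and 3 lower (5.52% and 7.40% of all genes tested), and at 3-fold 0 were lower (0.143% of all). The median of the set was 0.18 with median-ratio rescaling, which moved the median of all genes tested from -0.05 to 0.03. Leaving out either knockdown library gave a set median from 0.06 to 0.18. Of the set, 1 to 4 genes were then 2-fold higher (3.18% to 4.11% of all genes tested) and 4 to 7 genes 2-fold lower (5.94% to 6.06%). In the set 80 to 89 were above the control and 54 to 63 below it. Over all 11216 genes tested, 5931 were below it in library 1 and 5266 above it in library 2. These are values with no test, since no residual degree of freedom is left, and each count then needs 1 library in place of 2. The median difference between knockdown libraries 2 and 1 in the lumenal chaperone and disulfide groups, a comparison chosen with its alternatives after seeing the data, was 0.61 with a pseudocount of 5 and 0.86 to 0.91 otherwise. The mean log2 fold change turned sign with quantile normalization in DERL1 (-0.09), HYOU1 (-0.08), PDIA4 (-0.02) and SEC61A1 (-0.07), and with median-ratio rescaling in PDIA6 (0.03); the cause was not tested. Group medians changed sign between the libraries in the lumenal chaperone (-0.35 and 0.62), disulfide (-0.55 and 0.34), lectin (-0.19 and 0.02), oligosaccharyltransferase (-0.39 and 0.03), transcription factor (-0.14 and 0.03) and stress kinase (0.40 and -0.03) groups. No paired analysis was possible because there is 1 control library and no pairing with the knockdown libraries is stated. The fewest whole reads that can give the values were lowest in HSPA2, ERO1B and DNAJC5G among the tested genes. These are lower bounds, so how far depth limits those genes is not known.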
